A study of Homo sapiens with 84 samples.

Results

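BT-20 is an established cell line of triple-negative breast cancer, the group of breast tumours that lack oestrogen and progesterone receptors and HER2 amplification, and it carries basal epithelial features. The comparison described here set 3 ATAC-seq libraries of BT-20 cells given tazemetostat together with ipatasertib, each at 5 uM (the combination), against 3 libraries of BT-20 cells given the DMSO vehicle, across every peak and every gene sum. These are 6 of the 78 libraries analysed from 9 triple-negative lines. The labels list 84 libraries, and the 6 of HCC1806 were not analysed here. BT-20 had no library with either agent alone, so the share of each agent in a change cannot be told apart. Cells of both groups were in medium with 2% serum and were collected 24 hours after the last treatment. The labels describe the schedule for MDA-MB-468 (tazemetostat from day -5, ipatasertib from day 0) and do not repeat it for BT-20. Each transposition used 50000 cells, and no label says whether the libraries of a group came from separate cultures.

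Tazemetostat inhibits EZH2, the enzyme of Polycomb repressive complex 2 (PRC2), which places methyl groups on lysine 27 of histone H3 at silenced genes, many of them regulators of development. Ipatasertib inhibits the AKT kinases, which act below PI3K and growth factor receptors, keep FOXO transcription factors out of the nucleus and favour growth and survival. ATAC-seq reads where the Tn5 transposase can cut, so its counts rise at promoters and enhancers that become more open and fall at those that close. It does not measure transcription or histone marks.

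The BT-20 libraries held 15266907 to 16932187 counts in 861439 peaks. CDKN2B, a cell cycle inhibitor at a locus deleted in many tumour lines, had 1 count within 10 kb of its transcription start site (TSS) in the 3 BT-20 DMSO libraries together, against 1567 in those of BT-549. Epithelial genes were open in BT-20 DMSO cells: KRT5 stood at 213 CPM (counts scaled to the depth of the library) and CDH1 at 333 CPM. EGFR stood at 402 CPM, where the other 8 lines ranged from 86.2 to 733 CPM. Fitted as a mixture, each BT-20 library gave 97.6% or more to its own group and at most 1.4% to any other line. Within a group, the libraries differed by less than the counting noise (ratio of observed to counting variance over peaks 0.771 to 0.847), while libraries of different groups differed by 2.20 to 2.36 times that noise. The 3 libraries of a group were therefore counted as 1 sample, no SD is given, and every SE and adjusted p of the BT-20 comparison covers counting error alone and compares these 2 pools of libraries, not the conditions. In HCC1395, a line used below for comparison, DMSO replicate 3 gave 10.9% of its counts to the BT-20 profile, so shares and fits over the other lines are also given without it where it moved them.

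Promoters of 8 genes on which the results turn are printed here because their accessibility changed with the combination (6 opened and 2 closed). They were chosen after the values were seen. Each is the 250 bases before the RefSeq start of the gene, 5′ to 3′ on its own strand, build GRCh38.p14. Capitals mark matches to 7 short motifs searched on both strands: TGANTCA for AP-1, GTAAACA for FOXO, GGAATG for TEAD, AGATAA for factors of the GATA family, TTCNNNGAA for STAT, TGACGTCA for the CRE and TTTCCCGC for E2F. A match describes letters and shows no binding.
FN1, fibronectin, chr2:215436069-215436318, minus strand, a CRE match: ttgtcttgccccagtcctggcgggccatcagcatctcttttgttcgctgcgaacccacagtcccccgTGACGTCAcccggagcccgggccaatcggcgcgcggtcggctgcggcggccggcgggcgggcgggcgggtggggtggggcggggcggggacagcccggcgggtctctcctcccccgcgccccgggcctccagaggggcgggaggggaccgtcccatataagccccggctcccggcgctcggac
STARD4, a carrier of cholesterol, chr5:111512536-111512785, minus strand, a TEAD match: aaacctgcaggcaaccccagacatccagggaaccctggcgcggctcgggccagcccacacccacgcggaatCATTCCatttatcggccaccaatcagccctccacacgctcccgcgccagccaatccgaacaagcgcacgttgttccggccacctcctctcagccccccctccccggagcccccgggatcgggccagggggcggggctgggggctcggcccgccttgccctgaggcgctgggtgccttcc
MXI1, a repressor of growth genes, at a start other than its first, chr10:110209981-110210230, plus strand, a FOXO match: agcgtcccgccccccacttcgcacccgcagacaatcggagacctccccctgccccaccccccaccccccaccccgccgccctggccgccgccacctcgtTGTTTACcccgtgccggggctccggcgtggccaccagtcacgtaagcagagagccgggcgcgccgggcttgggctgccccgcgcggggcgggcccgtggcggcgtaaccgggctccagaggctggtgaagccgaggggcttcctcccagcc
TNFSF10, the death ligand TRAIL, chr3:172523431-172523680, minus strand, a GATA match: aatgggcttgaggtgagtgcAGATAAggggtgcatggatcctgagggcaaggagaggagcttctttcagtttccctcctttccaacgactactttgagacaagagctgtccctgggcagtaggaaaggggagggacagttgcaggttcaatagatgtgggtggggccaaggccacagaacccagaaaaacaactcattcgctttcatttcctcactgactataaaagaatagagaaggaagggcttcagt
ANKRD1, a YAP target, chr10:90921088-90921337, minus strand, matches to AP-1, TEAD and GATA: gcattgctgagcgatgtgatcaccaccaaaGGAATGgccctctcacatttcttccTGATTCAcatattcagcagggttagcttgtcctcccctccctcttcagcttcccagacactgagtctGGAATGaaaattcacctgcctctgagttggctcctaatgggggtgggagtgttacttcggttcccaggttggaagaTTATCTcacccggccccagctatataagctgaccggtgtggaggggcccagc
OR52J3, an olfactory receptor, chr11:5046276-5046525, plus strand, a FOXO match and no CpG: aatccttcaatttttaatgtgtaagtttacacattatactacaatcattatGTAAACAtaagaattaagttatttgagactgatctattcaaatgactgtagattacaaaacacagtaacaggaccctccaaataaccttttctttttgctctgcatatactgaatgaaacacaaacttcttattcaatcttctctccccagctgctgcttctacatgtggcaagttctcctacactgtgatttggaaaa
IL1A, the cytokine interleukin 1 alpha, chr2:112784494-112784743, minus strand, an AP-1 match: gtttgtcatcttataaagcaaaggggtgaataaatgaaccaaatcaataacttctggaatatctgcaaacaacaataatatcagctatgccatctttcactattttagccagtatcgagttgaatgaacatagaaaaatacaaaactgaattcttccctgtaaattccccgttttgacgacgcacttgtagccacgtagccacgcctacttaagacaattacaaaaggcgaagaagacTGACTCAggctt
MSH4, a meiotic recombination protein, chr1:75796632-75796881, plus strand, a TEAD match: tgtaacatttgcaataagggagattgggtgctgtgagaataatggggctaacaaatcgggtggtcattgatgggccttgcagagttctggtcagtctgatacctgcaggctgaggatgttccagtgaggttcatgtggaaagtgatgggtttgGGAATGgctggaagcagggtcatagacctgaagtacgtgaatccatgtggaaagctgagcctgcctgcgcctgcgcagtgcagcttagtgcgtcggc
The peak over the window rose at FN1 by 1.12 on the log2 scale, at STARD4 by 0.69, at MXI1 by 0.70, at TNFSF10 by 1.42, at ANKRD1 by 0.32 and at OR52J3 by 2.71. It fell by 0.50 at IL1A and fell by 1.12 at MSH4. The OR52J3 peak (chr11:5046411-5046788) covered only the part of its window nearest the start, and the FOXO match lay outside it.

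The first question was which genes gained or lost accessibility near their start. A gene's value is the sum of counts in peaks within 10 kb of its TSS, and a gene is said to have risen or fallen where the Benjamini-Hochberg adjusted p of edgeR's quasi-likelihood test was under 0.05. Of 21886 genes tested, 2612 rose (11.9%) and 2071 fell (9.46%). Most changes were small, with a median size of 0.32 on the log2 scale among genes that passed, and 147 rose and 75 fell by at least 2-fold. DESeq2 called 1162 risen and 830 fallen genes from the same counts. The median log2 fold over all tested genes was -0.0025. The libraries of the 2 groups did not overlap at 4447 of the called genes, and at 38.1% of all genes tested.

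The 10 largest rises lay at genes with low sums within 10 kb in DMSO cells. SULF1 (chromosome 8, 69466781 to 69660912), an extracellular enzyme that trims heparan sulphate, read 2.58, 2.40 and 2.24 CPM in the DMSO libraries and 10.1, 10.8 and 10.2 CPM in the combination libraries. Every combination library was thus far above every DMSO library, and the log2 fold was 2.10 ± 0.21 (SE, adjusted p = 4.34e-15, edgeR). PROX1 (chromosome 1, 213983151 to 214041510), the homeobox factor of lymphatic endothelium, went from 9.13, 13.4 and 13.3 CPM to 33.0, 32.0 and 34.1 CPM, a log2 fold of 1.47 ± 0.10 with no overlap. LMO3, a LIM-domain cofactor active in neuroblasts, went from 3.96 to 6.18 CPM in DMSO libraries to 9.79 to 15.4 CPM. MYO3A, a myosin of sensory hair cells (1.47 ± 0.23), MMRN1, a multimerin of platelets and endothelium (1.49 ± 0.27), and FCRL4, an Fc-receptor-like protein of B cells (1.48 ± 0.13), rose by like amounts. MMRN1 was uneven, with combination libraries at 3.43, 5.78 and 8.53 CPM against 1.73 to 2.24 CPM in DMSO. PROX1, MYO3A and MMRN1 had no tested sum within 1 kb of the start.

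Another 3 of the 10 largest rises were olfactory receptors, the odorant receptors of the nasal epithelium. OR52J3 read 7.58, 10.5 and 8.28 CPM in DMSO libraries and 25.3, 26.0 and 26.7 CPM in combination libraries (log2 fold 1.56 ± 0.12), OR4Q3 rose by 2.18 ± 0.27 and OR7A5 by 1.55 ± 0.18. These genes belong to a large family with near-identical copies, so reads may have been split between members and their single values are uncertain. Over the family, chosen after the values were seen, 58 of 192 tested olfactory receptor genes rose and 10 fell (30.2% and 5.21%, against 11.9% and 9.46% of all genes), with a median log2 fold of 0.22. DESeq2 called 29 risen and 2 fallen. Their accessibility was low, with a median log2 CPM of 2.46 against 5.48 for all protein-coding genes.

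The 10 largest falls also lay at genes with low sums within 10 kb. Only MSH4 and ZNF716 among them had a tested sum within 1 kb, so the other values do not describe the start itself. CDC42SE2 (chromosome 5, 131210052 to 131394672), an effector of the GTPase CDC42, read 8.27, 7.04 and 5.35 CPM in DMSO libraries and 1.63, 2.53 and 2.00 CPM in combination libraries, a log2 fold of -1.75 ± 0.25. SMC1A, a cohesin subunit, fell from 4.82, 4.63 and 5.86 CPM to 2.12, 3.25 and 1.45 CPM (-1.16 ± 0.26). NMD3, which exports the large ribosomal subunit (-1.07 ± 0.21), MSH4 (-1.22 ± 0.21), CRYZ, a quinone reductase (-1.23 ± 0.25), CCDC91, a Golgi protein (-1.29 ± 0.24), and SLC30A3, a zinc transporter of synaptic vesicles (-1.15 ± 0.22), also fell without overlap. Within 50 kb the log2 fold of SLC30A3 was 0.13 and did not pass. CCDC91 lost its call in both 50 kb windows, and CDC42SE2, NMD3 and MSH4 lost theirs in distal peaks within 50 kb. Zinc finger genes gave the other falls: ZNF728 went from 9.49 to 10.7 CPM to 3.43 to 3.59 CPM, ZNF716 fell by 1.15 and ZNF132 fell by 1.08. Of 384 tested genes named ZNF, a family of DNA-binding proteins chosen after the values were seen, 16 rose (4.17%) and 48 fell (12.5%). Over all genes these shares were 11.9% and 9.46%. DESeq2 called 4 risen and 18 fallen ZNF genes, and within 1 kb of the start 8 rose and 16 fell of 346.

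**Figure D1:**
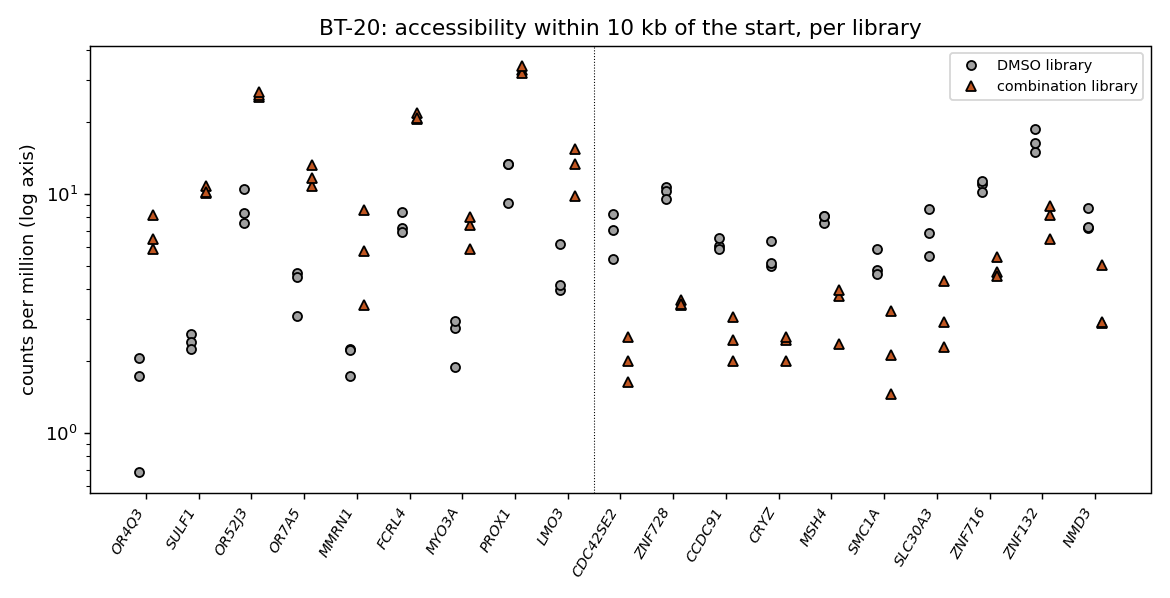
Accessibility in CPM within 10 kb of the start (vertical log axis) for 9 of the 10 genes with the largest rise (left of the dotted line) and the 10 with the largest fall, 1 point for each of the 3 DMSO (circles) and 3 combination (triangles) libraries of BT-20. The groups do not overlap at any of the 19 genes, as the rule that chose them required, and most values lie between 1 and 35 CPM.

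Peaks were tested singly to see where in the genome the changes lay. Of 223623 peaks tested, 22038 rose (9.85%) and 19726 fell (8.82%), and 7482 rose and 4592 fell by at least 2-fold. DESeq2 called 8795 and 6107 peaks. The strongest rise was an intronic element of DLG2, a synaptic scaffold gene (chr11:83864331-83866171, intron 10 of 21, 1841 bases wide). It read 1.82, 1.70 and 1.69 CPM in DMSO libraries and 18.4, 18.3 and 19.8 CPM in combination libraries, a 10.8-fold rise. Its log2 fold was above 0 in 6 of the 8 other lines (log2 values from -0.98 to 2.12). An intronic element of FMN2, a neuronal formin (chr1:240350634-240351735, intron 13 of 17), rose 8.10-fold, from 0.994 to 1.48 CPM to 9.81 to 10.4 CPM, and was above 0 in 8 of 8 other lines. The other 4 of the 6 largest rises lay in or near non-coding RNA genes, among them an intron of LINC01122 (chr2:58973717-58974396, 8.74-fold).

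By the same rule of level and no overlap, the largest falls of single peaks were smaller. An intronic peak of IL12A-AS1 (chr3:160084898-160085852) read 6.44, 6.25 and 7.11 CPM in DMSO libraries and 1.68, 1.36 and 1.95 CPM in combination libraries, a 3.95-fold fall. An intergenic peak nearest ZNF729 (chr19:22256980-22258217) fell 3.89-fold, an intronic peak of TSPEAR (chr21:44523524-44524232) 3.46-fold and an exonic peak of MTR, methionine synthase (chr1:236893246-236894625, exon 29 of 32), 3.12-fold. At the intergenic peak nearest LOC100128885 (chr7:64627842-64629141) the fall was 3.41-fold in BT-20, and 8 of 8 other lines were below 0.

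Direction depended on the distance to a start. Within 1 kb of a TSS, 10.3% of 16962 tested peaks rose and 4.49% fell. Between 10 and 50 kb the order turned, with 8.07% risen and 9.13% fallen, and beyond 100 kb 13.0% of 61461 peaks rose and 9.54% fell. Exonic peaks fell more often (9.54%) than they rose (7.3%), and intronic peaks were even at 9.69% and 9.7%. Promoter peaks made up 11.9% of tested and 11.9% of risen peaks, but 7.52% of fallen peaks. Among peaks changed by at least 2-fold, promoters made up 5.0% of the risen and 4.36% of the fallen. As a share of all counts, peaks within 1 kb of a TSS held 22.4%, 22.9% and 22.5% in DMSO libraries and 22.8%, 23.0% and 22.9% in combination libraries. These overlapped. An exact two-sided permutation test over the 6 libraries gave p = 0.3, but it takes them as independent and cannot go below 0.1, so it decides nothing.

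**Figure D2:**
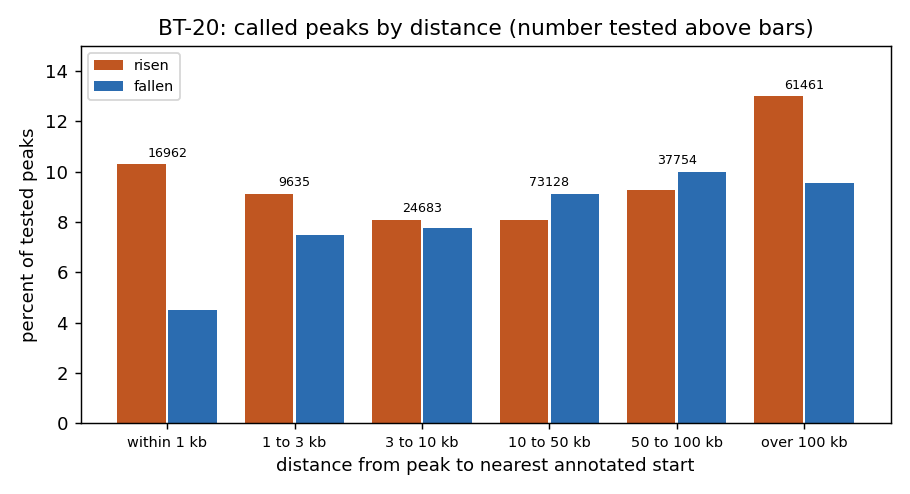
Percent of tested peaks that rose and that fell in BT-20 with the combination, by distance from the peak to the nearest annotated start, with the number of tested peaks above the bars. Within 1 kb 10.3% rose and 4.49% fell, and beyond 100 kb 13.0% rose and 9.54% fell.

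Promoter sequence differed between the 3 classes. Of 11238 RefSeq promoter windows that a tested peak overlapped by at least 150 bases, 1244 lay under a risen and 350 under a fallen peak. The overlap was counted over the window and a short stretch past the start. Median GC content was 65.2% over all windows, 70.0% under risen and 56.8% under fallen peaks, and the median number of CpG was 20, 24 and 12. The AP-1 letters stood in 5.14% of all windows, 5.06% of those under risen and 10.9% of those under fallen peaks. At like GC content the shares of all and fallen windows lay closer: below 50% GC, 15% of all windows and 22.9% of the fallen held the AP-1 letters, from 50% to 60% GC 8.05% and 11.1%, and at 60% or more 2.72% and 4.0%. Risen windows held the AP-1 letters less often than fallen ones below 50% GC and at 60% or more. From 50% to 60% GC the order turned, and risen windows held them more often than fallen ones. The FOXO letters stood in 2.21% of all, 2.57% of risen and 4.0% of fallen windows, and the TEAD letters in 9.81%, 9.24% and 13.1%. E2F letters were in 2.08%, 1.13% and 1.14%. Below 50% GC the FOXO letters stood in 6.7% of all and 7.23% of fallen windows, and the TEAD letters in 17.9% and 20.5%. From 50% to 60% GC these shares were 3.38% and 4.27% for FOXO, and 13.6% and 13.7% for TEAD. At 60% or more they were 1.14% and 2.0% for FOXO, and 7.41% and 8.67% for TEAD. Windows share regulators and base composition, so these shares are a description without a test.

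Changed peaks lay together. Of 26506 pairs of neighbouring called peaks within 50 kb, 77.9% had the same direction, where the shares of risen and fallen peaks alone give 50.2%. Of 2889 genes with at least 20 tested peaks assigned to them, 88 had at least 10 risen and no fallen peak, 30 had at least 10 fallen and no risen peak, and 8 had at least 10 of each. The genes named next were chosen by these counts. ZFHX3, a large homeobox transcription factor, had 96 risen and 5 fallen peaks of 252. Its sum within 10 kb of the TSS went from 12.6, 13.6 and 12.8 CPM to 23.8, 24.9 and 26.2 CPM. CDH13, an atypical cadherin, had 52 risen and 3 fallen peaks of 152, and MYT1L, a factor of neuronal identity, 48 and 1 of 120. RYR2, the calcium release channel of heart muscle, had 46 risen and 2 fallen of 109, TENM2, a teneurin of synapses, 42 and 1 of 80, and PIEZO2, a mechanosensitive channel, 37 and 0 of 66. The TENM2 sum within 10 kb did not pass (-0.016, adjusted p = 0.925, edgeR), while that within 1 kb rose by 1.45. At ESRRG, an orphan nuclear receptor with 38 risen and 3 fallen peaks of 67, the sum within 10 kb did not follow (-0.73 ± 0.29, adjusted p = 0.0597, edgeR), while the sum within 50 kb rose by 0.77. At FMN2, 42 of 73 peaks rose and 1 fell, yet the sum within 10 kb fell by 0.34, a call lost by DESeq2 and without combination replicate 1.

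Fewer loci closed. TXNRD1, thioredoxin reductase, had 28 fallen and 0 risen peaks of 53, with a median log2 fold of -0.59 over its peaks. Its sum within 10 kb was 87.3, 88.5 and 94.0 CPM in DMSO and 80.1, 87.2 and 85.5 CPM in combination libraries and did not pass (adjusted p = 0.193, edgeR). EGFR, the epidermal growth factor receptor, had 28 fallen and 2 risen peaks of 158, again with a sum near the start that did not pass (401, 408 and 396 CPM against 384, 413 and 401 CPM). The median log2 fold over the EGFR peaks was small at -0.117, and 8.82% of all tested peaks fell. KYNU, kynureninase of tryptophan breakdown, had 20 fallen and 0 risen peaks of 44, and its sum fell from 89.7, 86.3 and 85.6 CPM to 50.4, 50.6 and 48.5 CPM (-0.81 ± 0.05). ANXA1, an anti-inflammatory annexin, had 15 fallen and 0 risen of 28, SEMA5A, a guidance cue, 24 and 2 of 75, and BCAR1, a scaffold of adhesion signalling, 16 and 1 of 35.

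**Figure D3:**
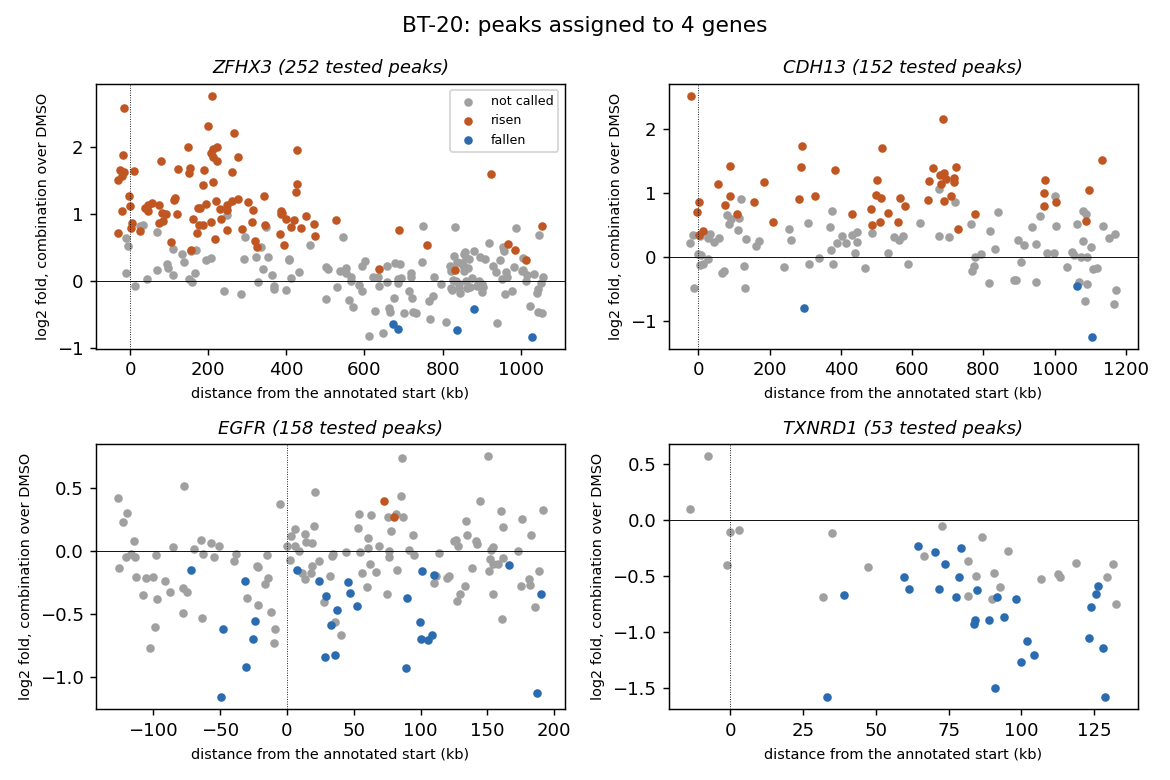
Log2 fold (combination over DMSO) of every tested peak assigned to ZFHX3, CDH13, EGFR and TXNRD1 in BT-20 against its distance from the annotated start in kb, coloured by call. At ZFHX3 96 of 252 peaks rose and at TXNRD1 28 of 53 fell with none risen.

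Genes near the drug targets were examined from 27 lists drawn up for this line. The genes of the drug targets did not pass: EZH2 read 74.4, 73.8 and 74.2 CPM in DMSO libraries and 73.1, 73.5 and 76.8 CPM in combination libraries, and EZH1, AKT1 and PIK3CA lay at log2 folds of 0.07, 0.13 and -0.22. Of 15 tested PRC2 subunits and opponents, 0 rose and 2 fell, both accessory subunits. Over all genes 11.9% rose and 9.46% fell, so the share of falls lay near that background. AEBP2 went from 12.7, 13.7 and 12.8 CPM to 10.3, 7.58 and 6.54 CPM (-0.67 ± 0.15). MTF2, which brings the complex to CpG islands, fell by 0.21 and lost its call without DMSO replicate 2 or 3 or combination replicate 1 or 3. Of 25 PI3K and AKT pathway genes, 1 rose, 1 fell and 23 did not pass, against the same background. INSR, the insulin receptor, rose (0.22 ± 0.07) and RPTOR, the mTORC1 scaffold, fell (-0.29 ± 0.07). RPTOR did not pass within 1 kb (-0.14, adjusted p = 0.55, edgeR) or in either 50 kb window. The rise of INSR was lost without DMSO replicate 1 or 2 or combination replicate 2 or 3.

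Of 29 tested FOXO factors and targets, 10 rose and 3 fell, with a median log2 fold of 0.035 against -0.0025 over all genes, of which 11.9% rose and 9.46% fell. FOXO1 and FOXO3 did not pass near their starts, and FOXO3 read 369 to 381 CPM in DMSO and 370 to 380 CPM in combination libraries. TNFSF10 read 17.9, 19.9 and 17.6 CPM in DMSO libraries and 20.2, 25.8 and 24.9 CPM in combination libraries (0.35 ± 0.10), and within 1 kb of its start the log2 fold was 1.38. MXI1, which opposes growth-driving factors, went from 62.3, 59.4 and 59.9 CPM to 75.9, 75.8 and 70.6 CPM (0.29 ± 0.05) without overlap. In the sum within 1 kb MXI1 did not pass (0.029, adjusted p = 0.894, edgeR), and the call was also lost in distal peaks within 50 kb. PDK4, a brake on glucose oxidation, rose by 0.28 ± 0.09 with overlapping libraries, and TRIM63, a muscle ubiquitin ligase, fell by 0.31 ± 0.11. Calls were lost for TNFSF10 without DMSO replicate 3 or combination replicate 2 or 3, for PDK4 without DMSO replicate 1 or 2 or combination replicate 1 or 3, and for TRIM63 without DMSO replicate 1 or any single combination library.

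PRC2 developmental targets, genes that carry the Polycomb mark in many epithelial cells, were read next. Of 57 tested, 9 rose and 1 fell, 39 were above 0, and the median log2 fold was 0.11 against -0.0025 over all genes. The share that rose, 9 of 57, lay near the 11.9% of all genes. MSX1, a homeobox gene of limb and mammary bud, went from 52.7, 54.2 and 56.6 CPM to 76.1, 64.8 and 63.0 CPM (0.32 ± 0.05). LHX2 went from 87.5, 91.1 and 93.7 CPM to 110.0, 109.2 and 108.2 CPM (0.27 ± 0.04), and PAX5, the B cell factor, rose by 0.27 ± 0.05. NEUROD1, a neurogenic factor, fell by 0.52 ± 0.16, a call lost without DMSO replicate 1 or combination replicate 2 or 3. Of 31 HOX genes, which set position along the body axis, 4 rose and 1 fell, a share of rises near the 11.9% of all genes. HOXD8 rose by 0.32 ± 0.06 and HOXD3 by 0.28 ± 0.07, while HOXB6 went from 18.6, 19.9 and 18.5 CPM to 12.7, 14.1 and 12.5 CPM (-0.53 ± 0.11).

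Breast lineage genes moved in both directions. Of 30 luminal markers 6 rose and 2 fell, and of 26 basal markers 7 rose and 6 fell, with medians of 0.020 and 0.0074, where 11.9% of all genes rose and 9.46% fell. PGR, the progesterone receptor, rose from a low level (0.64 ± 0.19), and PRLR, the prolactin receptor, went from 68.4, 68.5 and 69.9 CPM to 90.1, 90.8 and 96.6 CPM (0.42 ± 0.04). The rise of PGR was lost by DESeq2 and without DMSO replicate 2 or combination replicate 1. Within 1 kb of its start PGR did not pass (0.0049, adjusted p = 0.995, edgeR). GATA3, FOXA1, ELF3 and EHF, factors of luminal and epithelial identity, did not pass within 10 kb. Within 1 kb of the start FOXA1 fell (-0.14, adjusted p = 0.0401, edgeR), ELF3 and EHF did not pass, and GATA3 had no tested sum. Keratins of the basal layer moved apart: KRT14 went from 44.1, 45.6 and 46.7 CPM to 29.2, 33.0 and 31.8 CPM (-0.54 ± 0.07), while KRT17, a keratin of stressed epithelium, went from 18.9, 18.7 and 19.0 CPM to 31.2, 29.6 and 20.5 CPM (0.53 ± 0.10). KRT5 fell by 0.096 with overlapping libraries, a call lost without DMSO replicate 1 or combination replicate 1 or 2. KRT18 (0.26 ± 0.04) and KRT8 (0.17 ± 0.04), the keratins of simple epithelium, rose. KRT8 lost its call by DESeq2, in both 50 kb windows and in the fit of all 9 lines, and KRT18 did not pass within 1 kb (0.025, adjusted p = 0.842, edgeR). MME and NGFR, surface proteins of myoepithelium, rose by 0.44 each, and TP63 did not pass.

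Matrix and TGF-beta genes were read next. FN1 read 20.8, 16.1 and 19.3 CPM in DMSO libraries and 39.8, 37.9 and 40.0 CPM in combination libraries, a log2 fold of 1.06 ± 0.08 (adjusted p = 8.33e-21, edgeR). Its libraries did not overlap between the groups, and it passed within 1 kb of the start too (1.09). Of 24 mesenchymal markers 6 rose and 1 fell, where 11.9% of all genes rose and 9.46% fell: ZEB2 rose by 0.38 ± 0.09, CDH2, N-cadherin, fell by 0.60 ± 0.14, and VIM and ZEB1 did not pass. CDH2 did not pass within 1 kb of its start (-0.35, adjusted p = 0.57, edgeR) or in either 50 kb window. The ZEB2 sum within 1 kb was below 0 (-0.23) and did not pass. POSTN, periostin, rose by 0.58 ± 0.22, a call lost without DMSO replicate 1 or 3 or any single combination library. Of 22 TGF-beta, BMP and activin genes 9 rose and 3 fell, against the same background. FST, the activin trap follistatin, rose by 0.40 ± 0.08 and BMP7 by 0.36 ± 0.04. TGFB2 fell by 0.37 ± 0.10 with overlapping libraries, a call lost without DMSO replicate 1 or combination replicate 1, and its sum within 50 kb was above 0 at 0.08.

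Genes that act below growth factor, WNT and YAP signals were read against the 11.9% risen and 9.46% fallen of all genes. Of 28 AP-1 and ERK feedback genes 12 rose and 1 fell, with a median of 0.093. FOS went from 273, 273 and 271 CPM to 326, 341 and 349 CPM (0.31 ± 0.02), BATF3, a partner of the AP-1 factors, rose by 0.48 ± 0.05 and ETV4 by 0.38 ± 0.07. Of 25 receptor tyrosine kinases and adaptors 8 rose and 1 fell: AXL went from 50.5, 49.8 and 49.0 CPM to 66.1, 66.1 and 60.1 CPM (0.37 ± 0.05) and the adaptor GRB7 rose by 0.28 ± 0.03, while ERBB3 did not pass (-0.11, adjusted p = 0.0585, edgeR). Within 1 kb of its start AXL did not pass (0.14, adjusted p = 0.677, edgeR). Of 30 WNT genes 9 rose and 0 fell. SFRP1, a WNT antagonist, rose by 0.60 ± 0.08, WNT5B by 0.39 ± 0.04 and LGR5, the receptor of R-spondins, by 0.70 ± 0.23 from 3.09 to 3.62 CPM. WNT5B did not pass within 1 kb of its start (0.37, adjusted p = 0.386, edgeR). The call for LGR5 was lost without DMSO replicate 2 or 3 or combination replicate 1. Of 20 YAP and TEAD targets 3 rose and 3 fell. IGFBP3 rose by 0.42 ± 0.06 and ANKRD1 by 0.28 ± 0.08, the latter with overlapping libraries and lost without DMSO replicate 1 or 3 or combination replicate 3.

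Proliferation and stress lists were read against the same shares, 11.9% risen and 9.46% fallen. Of 32 cell cycle and replication genes 0 rose and 6 fell, 7 were above 0, and the median was -0.060. MCM4, a subunit of the replicative helicase, went from 15.5, 12.7 and 14.5 CPM to 6.85, 7.40 and 7.81 CPM (-0.95 ± 0.14). AURKB, the mitotic kinase, went from 80.4, 79.8 and 75.7 CPM to 61.5, 66.5 and 62.8 CPM (-0.31 ± 0.05), and RRM2, of nucleotide synthesis, fell by 0.26 ± 0.03. CCNE2 fell by 0.48 ± 0.16, a call lost without DMSO replicate 1 or 3 or any single combination library. CDKN1A, the inhibitor p21, rose from 72.0, 73.3 and 73.3 CPM to 89.1, 85.1 and 91.5 CPM (0.28 ± 0.04). MCM4, CCNE2 and CDKN1A had no tested sum within 1 kb of the start. In that window AURKB passed (-0.31) and RRM2 did not (-0.135, adjusted p = 0.22, edgeR). Of 18 ATF4 and unfolded protein response genes 0 rose and 5 fell. TRIB3 fell by 0.25 ± 0.05, PPP1R15A by 0.20 ± 0.03 and SLC7A11, the cystine importer, by 0.19 ± 0.05. The call for SLC7A11 was lost by DESeq2 and without combination replicate 1, and that for TRIB3 in distal peaks within 50 kb. Within 1 kb of the start TRIB3 (-0.094), PPP1R15A (-0.049) and SLC7A11 (-0.10) did not pass. Among 13 housekeeping genes 0 rose and 1 fell, and the median was -0.052, close to that of the cell cycle list.

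Survival, inflammatory and lipid lists were small, and several of their counts lay near the 11.9% risen and 9.46% fallen of all genes. Of 15 BCL2 family genes 3 rose and 1 fell. HRK, a BH3-only killer protein, went from 90.4, 91.3 and 90.6 CPM to 133.7, 130.4 and 128.9 CPM (0.53 ± 0.04), BIK rose by 0.24 ± 0.06 and BMF by 0.14 ± 0.02, and BID fell by 0.17 ± 0.05. The call for BIK was lost without DMSO replicate 1 or combination replicate 1, and that for BID without DMSO replicate 1 or 3 or combination replicate 1 or 2. Of 22 inflammatory chemokine and NF-kB genes 1 rose and 5 fell. IL1A went from 21.9, 20.8 and 24.5 CPM to 15.2, 14.6 and 16.3 CPM (-0.54 ± 0.10), CXCL8 fell by 0.42 ± 0.10, and CCL2 rose by 0.50 ± 0.06. Of 25 genes of mammary involution and gp130-STAT3 signalling 5 rose and 4 fell: JAK1 rose by 0.41 ± 0.05, and LIF (-0.88 ± 0.24), its receptor gene LIFR (-0.33 ± 0.04) and MMP3 (-0.80 ± 0.13) fell, while STAT3 and IL6ST did not pass. Of 22 sterol and fatty acid genes 2 rose and 2 fell. STARD4 went from 26.5, 27.8 and 24.7 CPM to 41.5, 44.6 and 41.6 CPM (0.69 ± 0.07) and SQLE, squalene epoxidase, from 4.13, 4.98 and 5.86 CPM to 2.29, 3.43 and 1.63 CPM (-1.02 ± 0.26). SREBF2, the sterol regulator, rose by 0.22 ± 0.05, a call lost by DESeq2 and in both 50 kb windows. Of 14 interferon genes 2 rose and 3 fell, with ISG15 up from 48.0, 46.5 and 43.1 CPM to 64.8, 59.2 and 53.8 CPM (0.37 ± 0.06), OAS2 up by 0.52 ± 0.14 and IFIT2 down (-0.63 ± 0.17). Calls were lost for OAS2 without combination replicate 3 and for IFIT2 without DMSO replicate 1 or combination replicate 1. ISG15 did not pass within 1 kb (0.14, adjusted p = 0.409, edgeR), nor did LIFR (-0.26, adjusted p = 0.307, edgeR), BMF or CCL2. LIFR also lost its call in distal peaks within 50 kb, and LIF by DESeq2. Of 20 hypoxia and glycolysis genes 4 rose and 3 fell, and SLC16A3, the lactate exporter, was among the risen (0.39 ± 0.09). The call for SLC16A3 was lost in both 50 kb windows.

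Markers of cell types that a pure line should lack were summed as a check, and their calls stand beside 11.9% risen and 9.46% fallen of all genes. Immune markers held 410 to 428 CPM in DMSO and 417 to 435 CPM in combination libraries, and 1 of 14 rose (KLRD1, 0.59 ± 0.07). Endothelial markers held 587 to 594 CPM and 630 to 648 CPM, with 4 of 15 risen, PROX1 and FLT4 (0.53 ± 0.06) first, and 1 fallen. FLT4 did not pass within 1 kb of its start (0.14, adjusted p = 0.499, edgeR). Neuronal markers held 397 to 412 CPM and 425 to 437 CPM, with 3 of 10 risen and 1 fallen. Adipocyte markers held 308 to 330 CPM and 322 to 327 CPM, with 2 of 8 risen and 0 fallen. No tested marker of these 4 lists was at 0 in any library (members that did not pass the filter on low counts are left out), and MS4A1, of B cells, was lowest at 1.38 CPM in 1 library. The part of other cells in the result was not tested.

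**Figure D4:**
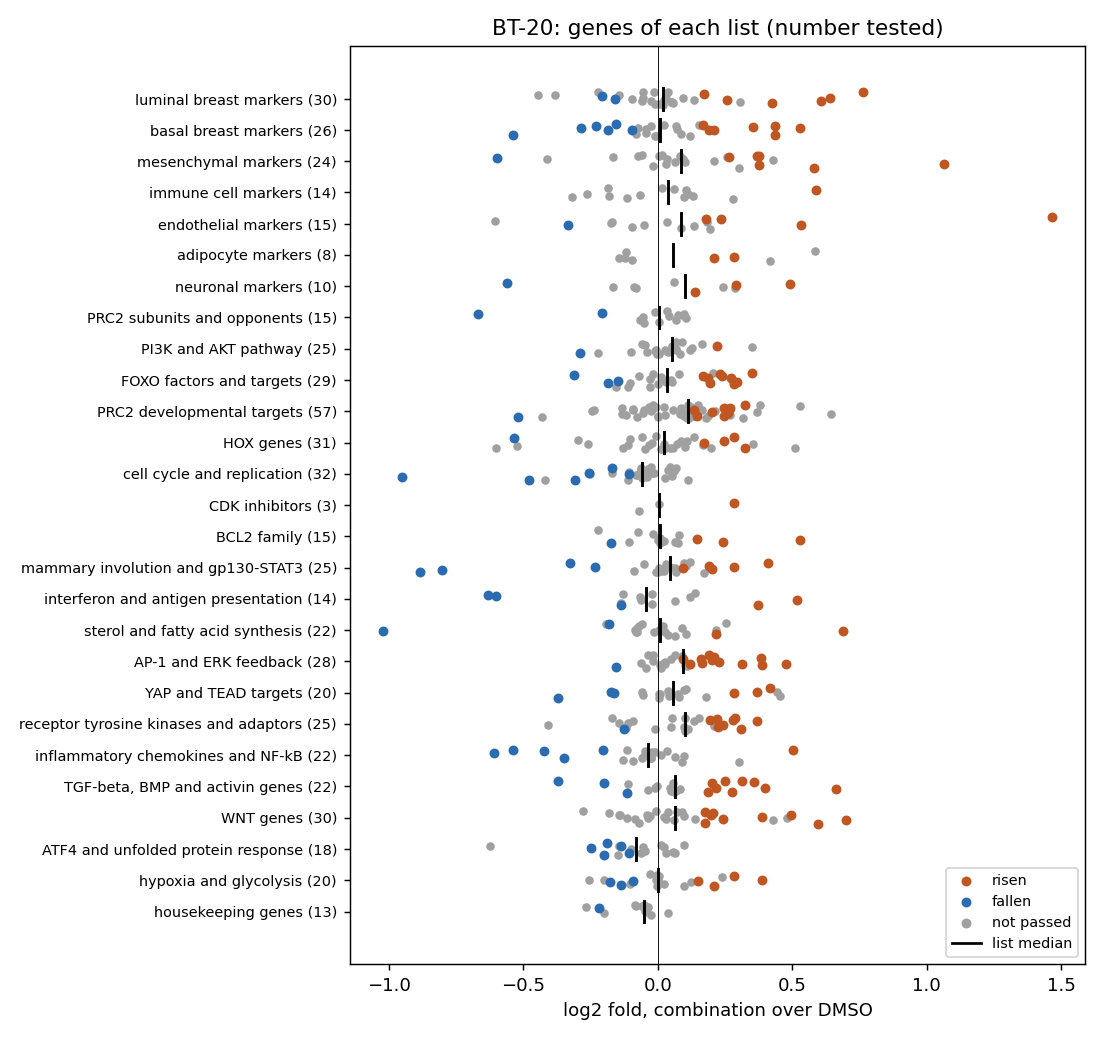
Log2 fold (combination over DMSO) in BT-20 of the tested genes of each of 27 lists, with the number tested in brackets, coloured by call, and the list median as a black bar. AP-1 and ERK feedback genes have 12 risen and 1 fallen of 28, and cell cycle genes 0 risen and 6 fallen of 32.

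The same genes were then read in the other 8 lines, whose combination and DMSO libraries share no control with BT-20. Genes that rose in BT-20 were above 0 for 58.3% (MDA-MB-468) to 76.3% (HCC1937) of their number in each other line, against 34.6% to 51.5% of all tested genes. Genes that fell in BT-20 were above 0 for 20.3% (HCC1395) to 40.0% (BT-549). Without DMSO replicate 3, HCC1395 gave 76.2% for the risen genes in place of 72.4% and 25% for the fallen genes in place of 20.3%. Fitted together with the line as a block, the other 8 lines had 2176 risen and 4207 fallen genes among 21829 shared with BT-20. Of the genes risen in BT-20, 26.9% also rose there (background 9.97%), and 32.2% of the other lines' risen genes had risen in BT-20. Of the genes fallen in BT-20, 35.6% also fell there (background 19.3%), which is 17.5% of the other lines' fallen genes. Opposite calls were made for 72 and 60 genes. Without HCC1395 DMSO replicate 3 the shares were 30.4% of BT-20's risen genes (background 11.4%) and 30.8% of its fallen genes (background 14.9%).

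Single peaks were read in the same way. Peaks risen in BT-20 were above 0 for 52.8% to 75.9% of their number in each other line, against 35.9% to 59.3% of all tested peaks, and fallen peaks for 21.4% (HCC1395) to 48.2%. Without DMSO replicate 3, HCC1395 gave 32.5% for fallen peaks in place of 21.4% and 71.6% for risen peaks in place of 63.4%, and the lowest line for fallen peaks was then MDA-MB-468 at 26.5%. In the DMSO libraries of the other lines, leaving out HCC1395, peaks that rose in BT-20 had a lower median level than all tested peaks in 7 of 7 lines. Peaks that fell had a higher one in 6 of 7, most of all in SUM-149PT (median log2 CPM 1.08 against 0.33 for all tested peaks) and not in BT-549.

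Whether BT-20 responded differently from the other lines was tested with the libraries of each group summed and the line as the unit. The difference passed for 0.0% of 23446 genes in either direction (edgeR quasi-likelihood test, 0 above and 0 below), with 830 genes at an unadjusted p under 0.05, and 0 passed in each of the 13 alternatives, with 674 to 987 genes under that p. BT-20 is 1 sample in this test and the spread comes from the other lines alone, so the test is weak, and nothing is called particular to BT-20 here. PROX1 was above 0 in 8 of 8 other lines (1.29 in the joint fit), as were SULF1 (1.06), OR52J3 (0.90), ZFHX3 (1.42) and HRK (0.34). SMC1A (-0.92), ZNF132 (-0.57), MCM4 (-0.76), AURKB (-0.36) and SQLE (-0.40) were below 0 in 8 of 8. In the joint fit FN1 stood at 0.018 (0.035 without HCC1395 DMSO replicate 3) and STARD4 at 0.0087 (0.031 without it), with 5 of 8 lines in the direction of BT-20 for each. Single lines ranged from -0.33 to 0.38 for FN1 and from -0.11 to 0.12 for STARD4. The difference from BT-20 had an adjusted p of 0.997 for FN1 and 0.287 for STARD4 (edgeR). ISG15, which rose in BT-20, was below 0 in 8 of 8 other lines (-0.43), and TRIM63, which fell in BT-20, was above 0 in 8 of 8 (0.28), with adjusted p of 0.997 for each difference (edgeR). CDKN1A stood at -0.18 in the other lines, where 2 of 8 lay above 0. AXL (3 of 8) and FOS (4 of 8) likewise had no common direction.

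**Figure D5:**
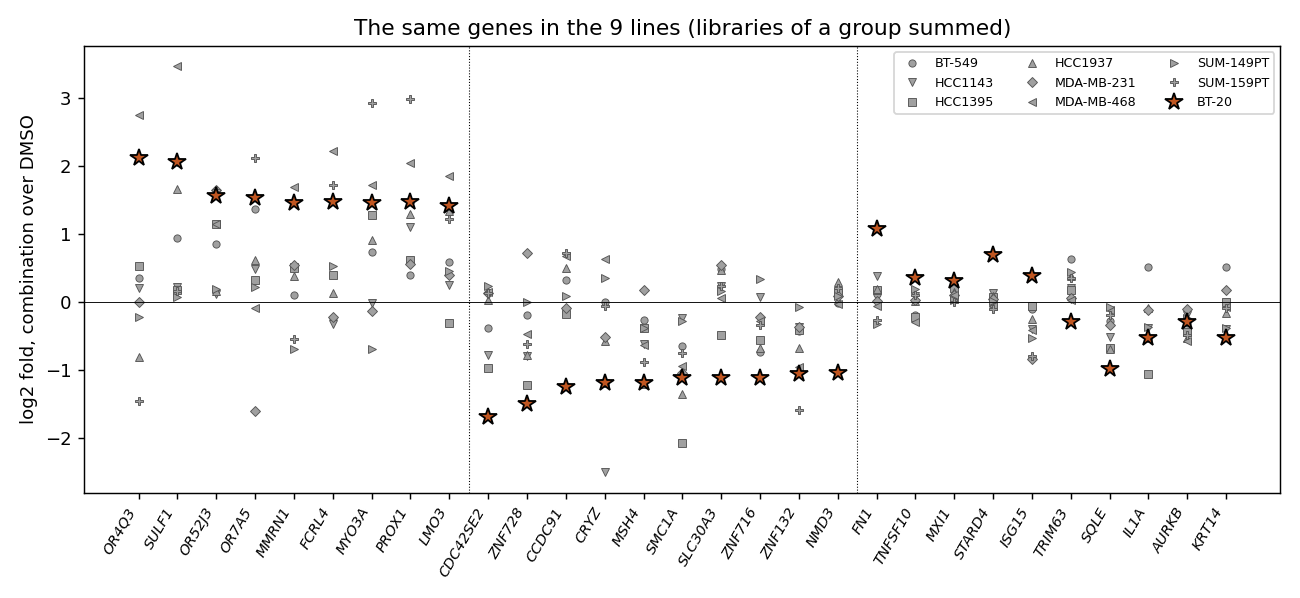
Log2 fold (combination over DMSO, libraries of a group summed, on a scale fitted across the 9 lines) of 29 genes in BT-20 (stars) and the other 8 lines (grey symbols, HCC1395 with all its libraries). The first 9 are among the 10 largest rises in BT-20, the next 10 the largest falls and the last 10 genes of the lists. PROX1 lies above 0 in every line, while FN1 lies between -0.33 and 0.38 and STARD4 between -0.11 and 0.12 in the other lines.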

How the data were processed

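ATAC-seq counts per peak were used as the authors deposited them, as raw counts in 1 table for 78 libraries. Per the submitters' processing notes, MACS2, featureCounts and hg38 were used, with no version given there. Peaks were assigned to genes by the table's own annotation, with distances to a TSS in bases as deposited, and 98.8% of gene IDs matched RefSeq. The 6 HCC1806 libraries were not analysed here. Counts of peaks within 10 kb of a TSS were summed per gene. Genes and peaks were tested with edgeR 4.0.16 in R 4.3.3 on the 6 BT-20 libraries (TMM, minimum count 10, quasi-likelihood, Benjamini-Hochberg threshold 0.05), and the scripts were tested on simulated data. DESeq2 1.42.0, other scalings, filters and windows, and leaving out each library were the alternatives. Named genes were the 10 largest rises and falls without overlap at a mean log2 CPM of at least 2, up to 4 passing genes per list with the largest change, and a fixed panel. Named peaks were the 6 largest rises and falls under the same limits of overlap and mean level. Other genes are said to be chosen after their values were seen. The comparison and the lists were chosen with earlier results of these data known. CDKN1B was not tested, and BCL2L11 and CDKN2A were not analysed here. Some genes that the rule names are not reported here, and the counts over lists include them. SEs and p-values of the BT-20 fits cover counting error only, while fits over lines carry the spread between lines.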

Additional observations from a re-analysis of the deposited data

How the results depend on the processing

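Replicate numbers did not pair the BT-20 libraries: same-numbered deviations correlated at -0.0021, 0.0144 and -0.0286, and with a replicate block 2607 genes rose and 2062 fell, and 21886 peaks rose and 19529 fell. DESeq2 called 1162 risen and 830 fallen genes and 8795 risen and 6107 fallen peaks. Windows of 1 kb gave 1191 risen and 871 fallen genes, of 50 kb 3944 and 3593, and distal peaks within 50 kb alone 3560 and 3307. A minimum count of 30 gave 13322 risen and 12993 fallen peaks. Promoters made up 5.0% of peaks risen and 4.36% of peaks fallen by at least 2-fold. Leaving out 1 library gave 2041 to 2170 risen and 1531 to 1726 fallen genes, and 17395 to 18217 risen and 14277 to 16057 fallen peaks. With counting error alone, an alternative chosen after seeing the data, 2617 genes rose and 2076 fell. Of 116 named genes called, 43 were called under every alternative that gave a value, 80 with each library left out and 75 by DESeq2. Signs turned in distal peaks within 50 kb for ESRRG (0.86), ETV4 (-0.14), FMN2 (0.056), FOXO1 (0.29), PDK4 (-0.024), POSTN (-0.0042), SLC30A3 (0.21), STAT3 (-0.16), TENM2 (0.21), TGFB2 (0.13) and TRIM63 (0.065). They turned within 50 kb for ESRRG (0.77), POSTN (-0.033), SLC30A3 (0.13), TENM2 (0.23) and TGFB2 (0.084), and within 1 kb for TENM2 (1.45) and ZEB2 (-0.23). These windows hold other peaks, and the cause was not tested. With 1 sample counted per group, depth limits counting error only and says nothing of the spread between cultures.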

Other observations

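Gene families outside the lists, chosen after their values were seen, are given as counts. Of 24 tested NRF2 targets, genes of the antioxidant response, 1 rose and 7 fell (29.2%, against 9.46% of all genes), with a median log2 fold of -0.0925, and DESeq2 called 1 and 3. Of 32 keratin-associated protein genes of the hair shaft, 8 rose and 2 fell. Of 70 ribosomal protein genes, 3 rose and 8 fell. Over all genes 11.9% rose and 9.46% fell. Of 4946 long non-coding RNA genes, 13.3% rose and 10.9% fell, against 11.8% and 8.73% of 15507 protein-coding genes. On the X chromosome 6.94% of tested peaks rose and 11.1% fell, against 9.85% and 8.82% of all peaks.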
